A study of Mus musculus with 2 samples.

Results

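The 6 Iroquois genes of the mouse, Irx1 to Irx6, were examined in total RNA from embryonic limb. They were found by matching the gene identifiers of the deposited tables, without version, to their GENCODE symbols, and all 6 had a row among 43346 Ensembl genes. They were compared by genomic cluster, with Irx1, Irx2 and Irx4 forming the IrxA cluster and Irx3, Irx5 and Irx6 the IrxB cluster. The RNA came from limbs of mouse embryos of strain B6NCrl, of mixed sex, at embryonic day 12.5, and the labels name no altered allele and no agent. The labels name 1 group of 2 biological replicates, with limbs of 88 embryos pooled for replicate 1 and of 68 embryos for replicate 2. Each library started from 10 ng of RNA above 200 nt, and the expected counts summed to 29810026 in replicate 1 and 29938721 in replicate 2. Forelimb and hindlimb were not separated and no other condition was given, so levels could be compared between genes and between the libraries only. With 2 pools, an exact sign-flip test of a gene ratio cannot go below p = 0.5, so ratios between genes are given with their spread and without a test.

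Iroquois proteins are transcription factors of the TALE class, whose DNA-binding homeodomain carries extra residues in the loop between its helices. They were first described in Drosophila, where they pattern the body and the eye, and in vertebrates they lie in clusters that arose by duplication, so that Irx1, Irx2 and Irx4 have a counterpart in Irx3, Irx5 and Irx6. In the mouse limb bud, Irx3 and Irx5 act together in the formation of proximal and anterior skeletal elements, and Irx1 is known from digit condensations and joints. Irx4 is best known from the ventricle of the heart, and Irx6 from the retina.

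The homeobox is the part in which the members are most alike, and it is shown here because reads from such sequence could be credited to the wrong gene. The longest run of residues encoded by all 6 genes spanned 43 codons, or 129 bases, within the homeobox. The coding strand of that run is given from the GENCODE M21 transcript with the highest count of each gene, with capitals at the 17 positions where the 6 genes do not all carry the same base. Since the encoded residues are the same, every difference shown is silent.
Irx1: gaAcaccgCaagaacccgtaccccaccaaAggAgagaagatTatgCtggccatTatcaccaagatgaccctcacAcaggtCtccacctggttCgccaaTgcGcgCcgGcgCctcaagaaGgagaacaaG
Irx2: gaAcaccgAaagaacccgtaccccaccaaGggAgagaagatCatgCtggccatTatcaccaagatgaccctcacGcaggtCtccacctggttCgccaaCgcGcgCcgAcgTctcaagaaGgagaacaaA
Irx4: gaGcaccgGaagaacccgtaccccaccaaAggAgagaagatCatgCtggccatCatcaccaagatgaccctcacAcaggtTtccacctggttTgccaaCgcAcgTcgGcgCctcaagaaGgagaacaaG
Irx3: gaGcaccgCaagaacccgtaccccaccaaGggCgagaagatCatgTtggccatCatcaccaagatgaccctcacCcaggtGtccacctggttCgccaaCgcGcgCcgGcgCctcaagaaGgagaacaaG
Irx5: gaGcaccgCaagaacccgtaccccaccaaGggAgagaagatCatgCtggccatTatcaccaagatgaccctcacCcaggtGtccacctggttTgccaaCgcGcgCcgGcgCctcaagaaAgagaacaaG
Irx6: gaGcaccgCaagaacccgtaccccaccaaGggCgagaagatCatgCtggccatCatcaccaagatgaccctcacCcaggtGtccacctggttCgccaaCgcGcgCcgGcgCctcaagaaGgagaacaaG
In the build GRCm38, the same assembly as mm10, the IrxA runs lie on chromosome 13, at chr13:71959992-71960120 in exon 2 of Irx1 (minus strand), chr13:72630724-72630852 in exon 2 of Irx2 (plus strand) and chr13:73267583-73267711 in exon 5 of Irx4 (plus strand). The IrxB runs lie on chromosome 8, at chr8:91800496-91800624 in exon 2 of Irx3 (minus strand), chr8:92359687-92359815 in exon 2 of Irx5 (plus strand) and chr8:92677296-92677424 in exon 4 of Irx6 (plus strand). Irx3 and Irx6 differed at 1 of the 129 bases (99.2% identity), Irx5 and Irx6 at 4 and Irx3 and Irx5 at 5. Within IrxA the genes differed more, at 8 bases between Irx1 and Irx2, 9 between Irx1 and Irx4 and 12 between Irx2 and Irx4.

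Over whole transcripts, the longest identical run between any pair of members was 88 nt, between Irx3 and Irx6, followed by 65 nt between Irx2 and Irx5 and 50 nt between Irx3 and Irx5. The deposited effective length of each member was its length minus 99 nt, as for reads of 100 nt, so no pair shared a run as long as such a read. The deposited counts of Irx1, Irx2, Irx4, Irx5 and Irx6 were whole numbers in both libraries, with a posterior standard deviation of 0. The count of Irx3 was 445.96 in replicate 1, with a posterior standard deviation of 0.21, and 366 in replicate 2. The antisense gene Irx3os, which overlaps Irx3, also had a fractional count in replicate 1, 18.04, and a whole one in replicate 2.

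All 6 genes reached a level of 1 TPM (transcript abundance scaled by length and to a fixed library sum) in both libraries. Over all Ensembl genes 33.5% did so, and over 210 listed homeobox genes 52.9%. Levels were low to moderate. Irx5 lay above 39.5% of the 14507 genes that reached 1 TPM in both libraries, and Irx6 above 6.91% of them. In bulk tissue, a low level from few cells with much RNA of a gene and from many cells with little cannot be told apart.

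In the IrxA cluster, Irx1 (ENSMUSG00000060969.8, chromosome 13, 71957921 to 71963723, minus strand), a gene of digit condensations in chick and mouse, was at 4.74 TPM in replicate 1 and 5.29 TPM in replicate 2, from 202 and 227 counts. Irx2 (ENSMUSG00000001504.10, chromosome 13, 72628820 to 72634198, plus strand), its neighbour in the cluster, was at 8.0 TPM in replicate 1 and 7.39 TPM in replicate 2, from 299 and 286 counts. Irx4 (ENSMUSG00000021604.11, chromosome 13, 73260479 to 73269608, plus strand), the ventricular gene, was at 6.03 TPM in replicate 1 and 4.92 TPM in replicate 2, from 262 and 218 counts. With all its transcripts summed, Irx2 was the highest of the 3 in both libraries and did not overlap with the others. Irx1 and Irx4 exchanged places between the libraries. The log2 ratio of Irx1 over Irx2 was -0.61 ± 0.19 (SD, n = 2), with the TPM ratio at 0.593 in replicate 1 and 0.716 in replicate 2. The full-length Irx2 transcript alone, at 5.69 TPM in replicate 1 and 5.37 TPM in replicate 2, was closer to Irx1, above all in replicate 2.

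In the IrxB cluster, Irx3 (ENSMUSG00000031734.12, chromosome 8, 91798525 to 91802067, minus strand), which acts in the early limb bud and the heart's conduction system, was at 9.53 TPM in replicate 1 and 7.76 TPM in replicate 2. Irx5 (ENSMUSG00000031737.10, chromosome 8, 92357625 to 92376286, plus strand), its partner in the limb bud, was at 12.95 TPM in replicate 1 and 10.47 TPM in replicate 2, from 559 and 455 counts. Irx6 (ENSMUSG00000031738.10, chromosome 8, 92674288 to 92680956, plus strand) was at 1.83 TPM in replicate 1 and 1.72 TPM in replicate 2, from 106 and 105 counts. Irx5 was the highest and Irx6 the lowest of all 6 genes in both libraries. The TPM ratio of Irx3 over Irx5 was 0.736 in replicate 1 and 0.741 in replicate 2 (mean log2 ratio -0.43 ± 0.0078, SD, n = 2).

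**Figure D1:**
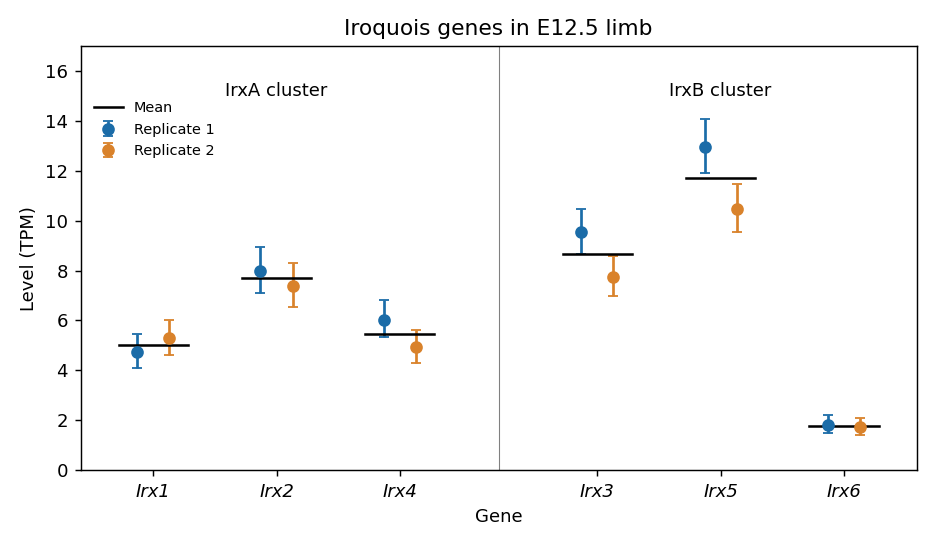
Level of each Iroquois gene in TPM in replicates 1 and 2 of E12.5 limb, with bars for the 95% exact Poisson interval of the count and a line at the mean. Irx5 is highest at 12.95 and 10.47 TPM and Irx6 lowest at 1.83 and 1.72 TPM.

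By mean level the order was Irx5 (11.71 ± 1.75 TPM), Irx3 (8.65 ± 1.25), Irx2 (7.70 ± 0.431), Irx4 (5.48 ± 0.785), Irx1 (5.02 ± 0.389) and Irx6 (1.78 ± 0.0778), each as mean ± SD with n = 2. Neighbours in that order were separate where the ranges over the libraries did not overlap. This held for Irx5 above Irx3 (1.35-fold), for Irx2 above Irx4 (1.41-fold) and for Irx1 above Irx6 (2.83-fold). In these 3 cases the 95% Poisson intervals of the counts, converted to TPM, did not overlap in either library. The level of Irx2 includes its short transcripts. Its full-length transcript alone was at 5.69 TPM in replicate 1 and 5.37 TPM in replicate 2, within the range of Irx4. Before conversion, the replicate 1 intervals overlapped, at 266.1 to 334.9 counts for Irx2 and 231.2 to 295.7 for Irx4. Irx3 and Irx2 overlapped, although Irx3 was above Irx2 in TPM within each library. By the deposited posterior mean TPM, Irx3 was above Irx2 in replicate 1 (9.28 against 8.60) and below it in replicate 2 (7.57 against 8.41). Irx4 and Irx1 overlapped and changed order. The intervals of Irx5, for example, were 11.9 to 14.1 TPM in replicate 1 and 9.53 to 11.5 TPM in replicate 2. These bounds reflect read counting alone, as reads without molecular identifiers are not independent molecules.

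IrxA summed to 18.77 TPM in replicate 1 and 17.60 TPM in replicate 2, and IrxB to 24.31 TPM in replicate 1 and 19.95 TPM in replicate 2. IrxA was the lower in both libraries and the ranges did not overlap, with a log2 ratio of IrxA over IrxB of -0.28 ± 0.14 (SD, n = 2). Of the reads of all 6 genes, IrxA held 40.7% in replicate 1 (763 of 1874, 95% exact binomial interval 38.5 to 43.0) and 44.1% in replicate 2 (731 of 1657, 41.7 to 46.5). That order rested on the top gene of each cluster. With Irx2 and Irx5 left out, the log2 ratio was 0.015, and for the mean of the members' log2 values it was 0.068, so no order of the clusters was shown apart from their highest genes.

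Within IrxA, the highest member was 1.69-fold above the lowest in replicate 1 and 1.5-fold in replicate 2. Within IrxB, these folds were 7.08 in replicate 1 and 6.09 in replicate 2. Irx5 supplied 53.3% of the IrxB level in replicate 1 and 52.5% in replicate 2, Irx3 39.2% and 38.9%, and Irx6 7.53% and 8.62%. In IrxA, Irx2 supplied 42.6% in replicate 1 and 42.0% in replicate 2, Irx4 32.1% and 28.0%, and Irx1 25.3% and 30.1%. IrxA was thus spread over its members and IrxB concentrated in a pair of them in both libraries.

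**Figure D2:**
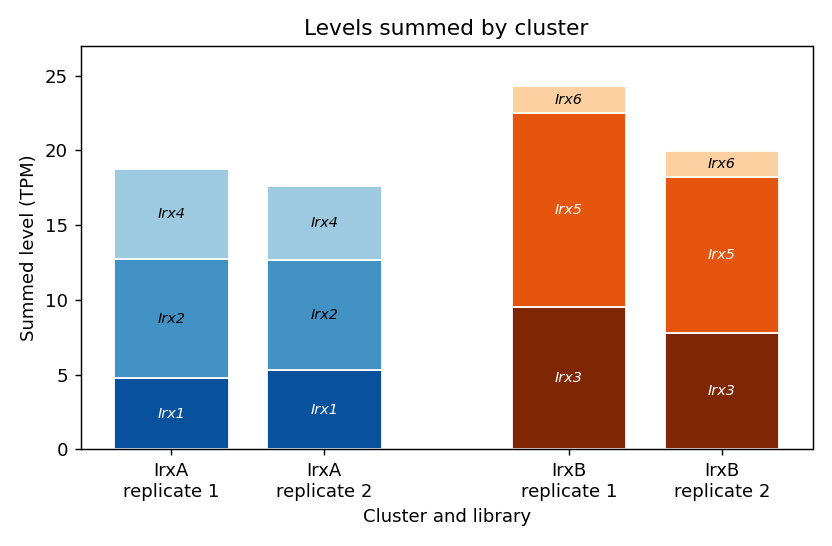
Summed level in TPM of IrxA (Irx1, Irx2, Irx4) and IrxB (Irx3, Irx5, Irx6) in each library, stacked by gene. IrxA reaches 18.77 and 17.60 TPM and IrxB 24.31 and 19.95 TPM, with Irx6 a thin part of IrxB.

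Genes that hold matching places in the clusters were set side by side. Irx1 was below Irx3, with a log2 ratio of -0.77 ± 0.32 (SD, n = 2) and a TPM ratio of 0.497 in replicate 1 and 0.682 in replicate 2. Irx2 was below Irx5, with a log2 ratio of -0.59 ± 0.14 and a TPM ratio of 0.618 in replicate 1 and 0.706 in replicate 2. The last pair ran the other way. Irx4 was above Irx6, with a log2 ratio of 1.57 ± 0.14 and a TPM ratio of 3.30 in replicate 1 and 2.86 in replicate 2. In each of these 3 pairs the direction was the same in both libraries. Without length scaling the log2 ratio of Irx4 over Irx6 was 1.16. Irx6 had the longest transcripts of the family (3185 nt in replicate 1 and 3330 nt in replicate 2, weighted by transcript).

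Transcripts were quantified separately in the deposited tables. Irx1 and Irx5 had 1 transcript each there, Irx3, Irx4 and Irx6 had 2 and Irx2 had 5, whereas the later GENCODE M21 lists 3 for Irx1 and 2 for Irx5. Of Irx2, the full-length ENSMUST00000074372.5 (2625 nt) held 71.18% of the level in replicate 1 and 72.68% in replicate 2, and the retained-intron transcript ENSMUST00000163393.1 held 17.72% and 24.58%. Of Irx4, ENSMUST00000176684.3 held 83.30% in replicate 1 and 68.87% in replicate 2, and ENSMUST00000022095.9 the rest. The transcript with the larger share was the same in both libraries for these genes.

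In IrxB, the transcript with the larger share was also the same in both libraries. Of Irx3, ENSMUST00000175795.2 held 100% in replicate 1 and 87.05% in replicate 2, and ENSMUST00000093312.5, at 2610 nt against 2597 nt, had 0 counts in replicate 1 and 47.61 counts in replicate 2. Of Irx6, the longer ENSMUST00000034185.8 held 65.78% in replicate 1 and 92.52% in replicate 2, and ENSMUST00000167261.2 had 32.09 counts in replicate 1 and 6.64 counts in replicate 2. These splits are the quantifier's estimates, and no difference between the libraries was tested for them.

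Both clusters contain long stretches without measured coding genes. IrxA spans 1311688 bases of chromosome 13, with 665 kb between Irx1 and Irx2 and 626 kb between Irx2 and Irx4. IrxB spans 882432 bases of chromosome 8, with 556 kb between Irx3 and Irx5 and 298 kb between Irx5 and Irx6. No protein-coding gene other than the members is annotated inside either cluster in GENCODE M21.

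Inside IrxA, 2 other annotated genes were measured. The ribosomal protein pseudogene Rpl9-ps4 was at 1.24 TPM in replicate 1 and 0.22 TPM in replicate 2, and its value is uncertain because it resembles its parent gene. The noncoding Gm20554 was at 0.29 TPM in both libraries. Inside IrxB, 7 others were measured, and 1 of them, Crnde, reached 1 TPM in both libraries. Crnde is a long noncoding RNA whose gene lies 1504 bases from Irx5 on the opposite strand. It was at 12.43 TPM in replicate 1 and 13.26 TPM in replicate 2, close to Irx5 in level, from 155 and 161 counts. Its counts were thus nearly level between the libraries, whereas Irx5 was lower in replicate 2. Crnde had fewer counts than Irx5, and whether the genes differ in this was not tested. The antisense gene Irx3os, which overlaps Irx3 over 1653 bases, was at 0.50 TPM in replicate 1 and 0.46 TPM in replicate 2, from 18.04 and 18.00 counts. Whether the counting used strand is unknown here, and the deposited count of Irx3 had a posterior standard deviation of 0.21 in replicate 1 and 0 in replicate 2. Of the rest, the noncoding Gm28511, Gm28515 and Gm21817 had at most 1 count in a library, and Gm28516 and Gm24254 were listed at 0 in both.

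On the Irx4 side of IrxA, the nearest measured coding gene was Ndufs6, which encodes a subunit of respiratory complex I, 50.2 kb away and at 293.79 TPM in replicate 1 and 318.37 TPM in replicate 2. No measured coding gene lay within 1000 kb on the Irx1 side. IrxB was flanked by Fto, 130 kb from Irx3, and by Mmp2, 146 kb from Irx6. Fto, which encodes an RNA demethylase and whose introns hold elements known to contact Irx3, was at 79.34 TPM in replicate 1 and 77.81 TPM in replicate 2. Mmp2, a matrix metalloproteinase gene, was at 148.49 TPM in replicate 1 and 150.26 TPM in replicate 2. Of 18 measured coding genes within 1000 kb of IrxA, 12 reached 1 TPM in both libraries, and of 18 around IrxB, 7 did. The highest after those named were Mrpl36 (91.6 TPM on average), Clptm1l (69.7), Lpcat1 (50.5) and Nkd2 (48.3) near IrxA, and Aktip (38.1), Rbl2 (11.8) and Lpcat2 (8.70) near IrxB.

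**Figure D3:**
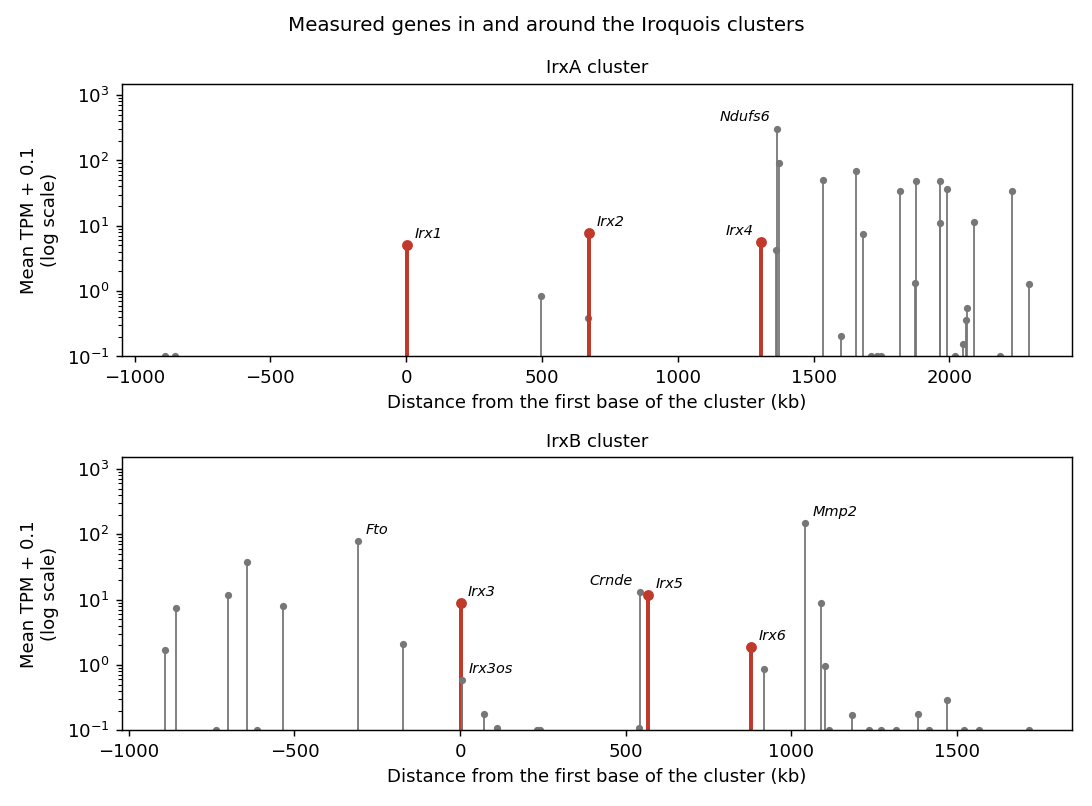
Mean level of measured genes (TPM + 0.1, log scale) against distance in kb from the first base of each cluster, with Iroquois genes in red and other genes in grey. Between Irx genes the other measured genes lie below 1 TPM except Crnde, next to Irx5, while Ndufs6, Fto and Mmp2 outside the clusters are higher.

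Among 210 measured homeobox genes, ordered by mean level, Irx5 ranked 51, Irx3 60, Irx2 62, Irx4 75, Irx1 78 and Irx6 102. The median of the 6 was 6.59 TPM, and that of the 12 other TALE genes (Meis, Pbx, Pknox and Tgif members and Mkx) was 23.9 TPM. All 12 of these reached 1 TPM in both libraries. Tgif1 was the highest (111.66 TPM in replicate 1 and 109.81 TPM in replicate 2) and Meis3 the lowest (7.70 TPM in replicate 1 and 6.50 TPM in replicate 2). Mkx, the TALE gene of tendon progenitors, was at 32.97 TPM in replicate 1 and 30.02 TPM in replicate 2, above every Iroquois gene in both libraries. Irx5, Irx3 and Irx2 were above Meis3 in both libraries. Pbx4 was at 6.15 TPM in replicate 1 and 8.38 TPM in replicate 2, and all the TALE genes other than Meis3 and Pbx4 were above Irx5 in both libraries.

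The homeobox genes nearest to each member in level were found by the distance of log2(TPM + 0.1) over the 2 libraries. The nearest to Irx1 were Dlx1 (4.62 TPM in replicate 1 and 5.35 TPM in replicate 2, distance 0.0396), Hoxb2 and Dlx2. For Irx2 they were Lmx1b (8.14 and 7.23 TPM, distance 0.0398), Zhx2 and Dlx3, and for Irx3 Zhx3 (9.53 and 8.74 TPM, distance 0.170), Hhex and Lmx1b. For Irx4 they were Zfhx2, Irx1 and Hoxd8. Those near Irx5 included Zeb2 (11.55 and 10.15 TPM, distance 0.170) and Hoxa7, and those near Irx6 included Pou5f2 and Hoxa2. With 2 libraries this likeness is one of level only.

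**Figure D4:**
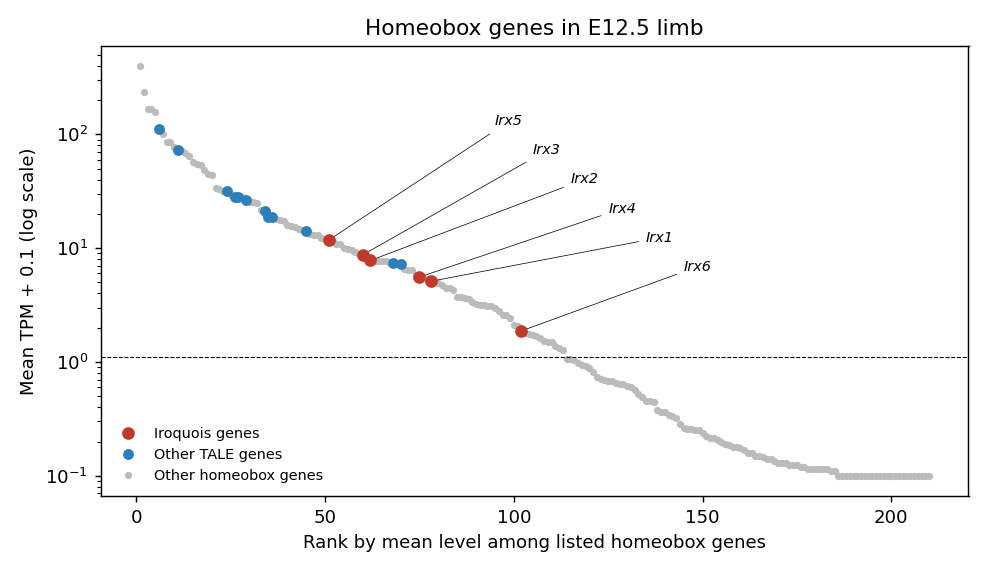
Mean level (TPM + 0.1, log scale) of 210 homeobox genes by rank, with Iroquois genes in red, the 12 other TALE genes in blue and the rest in grey, and a dashed line at 1 TPM. The Iroquois genes lie between ranks 51 and 102, above the line.

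For each gene, the split of its reads between the libraries was set against the split of the library totals in an exact binomial test, two-sided, with Benjamini-Hochberg adjustment over 18580 genes. It compares the 2 pools, not conditions, and covers counting error only. Calls needed a fold of 2 or more and an adjusted p under 0.05. None of the 6 genes was called, where 1.67% of all tested genes were. At an unadjusted p under 0.05, 3 of the 6 passed, where 26.7% of tested genes did. edgeR's exact test was also run, but with 1 library on each side its dispersion came from the same libraries it compared and takes in their difference, so its lack of calls among the 6 says nothing about how alike the libraries are. Over all tested genes it called 79 with the trended dispersion and 0 with the tagwise one (173 at an unadjusted p under 0.05), and the trended version was taken up after the tagwise one had made no call.

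With no fold limit, 2 of the 6 were called, where 16.0% of tested genes were in either direction and 9.05% were higher in replicate 1. Both belong to IrxB. Irx5 had a log2 ratio of replicate 1 over replicate 2 of 0.32 (95% interval 0.14 to 0.50; adjusted p = 0.00589, exact binomial test). Irx3 had 0.31 (0.10 to 0.51; adjusted p = 0.0227, same exact test). Irx4 had a log2 ratio of 0.29 (0.02 to 0.55), which did not pass (adjusted p = 0.143, exact test), and Irx2 0.08 (-0.15 to 0.32), Irx6 0.03 (-0.37 to 0.44) and Irx1 -0.15 (-0.43 to 0.13) did not pass either. All 6 intervals lay inside a fold of 2 in either direction. By scaled count, 5 of the 6 were higher in replicate 1, where 52.4% of tested genes were. In TPM, 5 of the 6 were higher in replicate 1, where 47.5% of the genes at 1 TPM or more were. The median log2 ratio of the members was 0.19 and that of all tested genes 0.01.

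**Figure D5:**
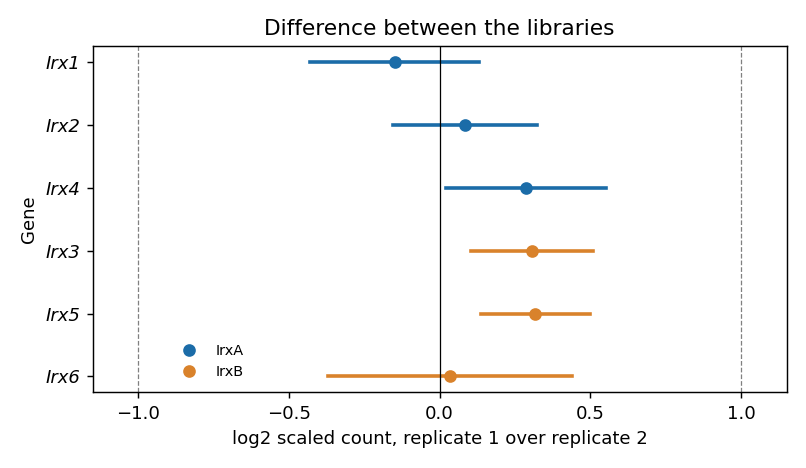
log2 ratio of the scaled count in replicate 1 over replicate 2 for each Iroquois gene, with the 95% exact binomial interval and dashed lines at a fold of 2. Irx3 and Irx5 lie at 0.31 and 0.32, Irx1 at -0.15, and no interval reaches a dashed line.

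Marker lists were read beside these values. All 12 limb mesenchyme genes reached 1 TPM in both libraries, and they summed to 1189 TPM in replicate 1 and 1265 TPM in replicate 2. Of 16 genes of condensations and joints, all reached 1 TPM in both, from Col2a1 down to Gdf6, with sums of 1154 TPM in replicate 1 and 1031 TPM in replicate 2, and 10 were higher in replicate 1. The anterior list was higher in replicate 1 for 6 of 6 genes and the posterior list for 1 of 7. These lists were led by Asb4 and Hoxd12 and lowest at Alx4 and Tbx2. Over all genes at 1 TPM or more in both libraries, 47.5% were higher in replicate 1. Hedgehog pathway genes were higher in replicate 1 for 11 of 12, from Gas1 (276.9 TPM on average) down to the ligand gene Shh (0.0750). Of the 12, 11 reached 1 TPM in both, and Shh was at 0.08 TPM in replicate 1 and 0.07 TPM in replicate 2. The lists share genes, with Gli3 on the anterior and hedgehog lists and Hoxd13 on the posterior and limb mesenchyme lists. Irx3 and Irx5, also higher in replicate 1, shared that direction with most genes of the anterior and hedgehog lists, as well as with 9 of 10 ectoderm genes, 10 of 12 muscle genes and 9 of the 12 other TALE genes. Limb mesenchyme was higher in replicate 1 for 3 of 12, and neuron genes for 2 of 10. Values of some genes on these lists, chosen after they were seen, follow. By TPM, Tbx4 and Pitx1 had log2 ratios of replicate 1 over replicate 2 of -0.20 and -0.28. Those of Irx3 and Irx5 were larger in size, at 0.29 and 0.30. Tbx5 had 0.54, and so did Alx4 of the anterior list, with Hhip of the hedgehog list at 0.53. The forelimb gene Tbx5 was at 35.17 TPM in replicate 1 and 24.11 TPM in replicate 2, whereas the hindlimb genes Tbx4 (32.27 TPM in replicate 1 and 37.14 TPM in replicate 2) and Pitx1 (142.42 TPM in replicate 1 and 172.9 TPM in replicate 2) were higher in replicate 2. The cartilage matrix genes Matn1, Comp and Acan were higher in replicate 1. Matn1 was at 25.26 TPM in replicate 1 and 10.2 TPM in replicate 2. Comp was at 4.34 and 2.01 TPM and Acan at 6.26 and 3.13 TPM. On the condensation and joint list, 6 of 16 genes were higher in replicate 2. Among them was Gdf5, at 48.83 TPM in replicate 1 and 55.67 TPM in replicate 2. The part of tissue composition in the difference of Irx3 and Irx5 was not tested.

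Heart genes were read beside Irx4, which was at 6.03 TPM in replicate 1 and 4.92 TPM in replicate 2. Of 13 heart genes, 5 reached 1 TPM in both libraries, and the sums were 51.13 TPM in replicate 1 and 44.17 TPM in replicate 2, mostly Tnnt2 (31.9 TPM on average). The defining factor gene Nkx2-5 was listed at 0 in both libraries, and the ventricular gene Myl2 was at 0.15 TPM in replicate 1 and 1.55 TPM in replicate 2. In replicate 1, 11 of the 13 heart genes were higher, where 47.5% of all genes at 1 TPM or more were. Most of the 13 were below 1 TPM in at least 1 library. Irx4 was also higher in replicate 1, but its difference did not pass (adjusted p = 0.143, exact binomial test). The part of heart tissue in the Irx4 level was not tested. Neural tube, where Irx3 and Irx5 are also known, left little signal. Of 12 neural tube genes, 1 reached 1 TPM in both libraries (Dbx2), Sox1, Nkx2-2 and Neurog2 were listed at 0 in both, and the sums were 4.74 TPM in replicate 1 and 4.51 TPM in replicate 2.

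Marker genes of ectoderm, muscle and neurons were read as well. All 10 ectoderm genes reached 1 TPM in both libraries, from Krt14 down to Krt8, with sums of 467.6 TPM in replicate 1 and 423.8 TPM in replicate 2. Of 12 muscle genes, 10 did, with sums over the list of 877.5 TPM in replicate 1 and 851.6 TPM in replicate 2. Actc1 was the highest on the list and Pax7 the lowest, below 1 TPM. Of 10 neuron genes, 7 did, with sums over the list of 56.09 TPM in replicate 1 and 76.21 TPM in replicate 2. Gap43 was the highest of these and Elavl3 the lowest on the list, also below 1 TPM. The share of each cell type in the level of an Iroquois gene was not tested.

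The Iroquois transcripts are rich in G and C. Their content was 61.7% in Irx1, 56.8% in Irx2, 59.2% in Irx4, 62.5% in Irx3, 58.0% in Irx5 and 57.6% in Irx6, where the median of the longest transcripts of 21901 protein-coding genes was 49.1%. The richest 100-nt window reached 88% in Irx1, 87% in Irx2, 76% in Irx4, 84% in Irx3, 83% in Irx5 and 79% in Irx6. The part of base composition in the levels was not tested.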

How the data were processed

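Total RNA from pooled limbs of 1 group was measured in 2 libraries. The authors deposited gene and transcript tables made with mm10 and GENCODE M4, per the deposited text files. Aligner, quantifier and strand handling were not stated there. The deposited expected counts are estimated counts that need not be whole, and they were rounded for tests. The deposited TPM values are scaled by effective length to a fixed sum, and the FPKM values the authors deposited by length and mapped reads. Percent values deposited for transcripts give each transcript's share of its gene, and bounds of a TPM interval are deposited as a score column that is not printed here.

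Names and coordinates came from GENCODE M21 on the same assembly, and 42462 of 43346 Ensembl genes matched. Detection meant 1 TPM in both libraries, and log ratios used a pseudocount of 0.1 TPM. Clusters were compared by summed TPM. An exact binomial test of each gene's reads, for genes reaching 10 counts over both libraries, compared the libraries and was tested on simulated data. The simulated counts varied by sampling alone, so they do not show how the test behaves under the wider spread of these libraries. edgeR's exact test was an alternative, with its dispersion chosen after seeing the data. With 1 group, edgeR's quasi-likelihood test has no contrast. The libraries differed beyond sampling noise (chi-square per degree of freedom 6.21). Homeobox runs came from GENCODE M21 transcripts. Text names all members, genes inside the clusters, the 5 highest flanking genes, the 3 nearest homeobox genes and the ends of each list; some genes under this rule are not reported here. Members and lists were chosen with earlier results of these data known. Tools were Python 3.11.15, numpy 2.4.6, scipy 1.17.1, pandas 2.3.3, matplotlib 3.10.9, R 4.3.3, edgeR 4.0.16 and DESeq2 1.42.0.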

Additional observations from a re-analysis of the deposited data

How the results depend on the processing

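All 6 genes stayed at or above the detection level under each alternative except a level of 2 TPM, which 5 reached. The log2 ratio of IrxA over IrxB (-0.28) ranged from -0.37 to -0.18 with each replicate left out and was -0.44 without length scaling. It turned to 0.068 for the mean of the members' log2 values and to 0.015 without the highest member of each cluster, where the change follows from leaving out Irx2 and Irx5 or giving Irx6 equal weight. Without length scaling, Irx2 over Irx5 was -0.78, Irx4 over Irx6 1.16 and Irx3 over Irx5 -0.32. With a pseudocount of 1, Irx4 over Irx6 was 1.22 and Irx3 over Irx5 -0.40. With posterior means, Irx2 over Irx5 was -0.41. None of the 5 gene ratios changed sign. With each replicate left out, Irx1 over Irx3 ranged from -0.99 to -0.54, Irx2 over Irx5 from -0.69 to -0.50, Irx4 over Irx6 from 1.46 to 1.67, Irx1 over Irx2 from -0.74 to -0.47 and Irx3 over Irx5 from -0.44 to -0.43.

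Between the libraries, 311 of 18580 genes were called, with 74 at a minimum of 100 counts, 2972 with no fold limit and 79 by edgeR's exact test with a trended dispersion. That test was first run with edgeR's tagwise dispersion, which called 0 genes (173 at an unadjusted p under 0.05, against 772 with the trended one). The trended dispersion was chosen after seeing that result, so the 79 calls depend on a choice made with the data in view. The members called were 0 except with no fold limit, where Irx3 and Irx5 were called. No paired analysis was possible because the labels name 1 group. The depth gave 105 to 559 counts per gene and library, which limits the precision of Irx6 most.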
